A study of Arabidopsis thaliana with 6 samples.

Results

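The 33 loci described here are a chosen list of genes of the Arabidopsis thaliana plastid chromosome that serve functions other than photosynthesis. The list holds RNA polymerase genes (rpo), ribosomal protein genes of the large (rpl) and small (rps) subunit, and matK, accD, clpP, ycf1 and ycf2. It is not the full set of such genes. The loci were taken by identifier, not by any measured value, from the probe names of the array, and 32 probes carried all 33 loci under 29 gene symbols. The list was nevertheless made with earlier results of these data known. The listed features were a small part of the 23394 genes tested. Total RNA came from whole 14-day-old seedlings grown on medium in days of 14 hours light and 10 hours dark. One group, sORF2146ox, was a transgenic plant that overexpresses the short open reading frame sORF2146, and the other was a transgenic plant that carried the empty pMDC32 vector. Both groups are transgenic, and an untransformed group was not analysed here. Each group had 3 arrays, described by the series as biological replicates. How many independent transgenic lines they represent, and the promoter that drives sORF2146, are not given in the sources used here. The series asks what sORF2146 does in the plant, with flowering named in its title.

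Plastids keep a small genome of their own, inherited from a cyanobacterial ancestor. A bacterial-type RNA polymerase, whose core subunits are encoded by the plastid rpo genes, transcribes mainly the photosynthesis genes, and a phage-type polymerase imported from the nucleus transcribes the rpo genes themselves and several other housekeeping genes. The plastid ribosome is of the bacterial type and is assembled from plastid-encoded and nuclear-encoded proteins. Many of these genes lie in clusters that are transcribed together and then cut and spliced, and the RNA levels of plastid genes depend strongly on RNA stability as well as on transcription.

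The 32 housekeeping features were measured well above background on 6 of 6 arrays, with no saturated spot and no outlier flag among them, and their processed signals ran from 1188 to 103148. Values below are scaled log2 signals, that is, the log2 processed signal minus the 75th percentile of the same array, and a difference is the mean of the 3 sORF2146ox arrays minus the mean of the 3 vector control arrays. The level of one probe was not set against that of another, since probes differ in how well they bind. Per array, 65.3% to 68.8% of the probes that are not controls had the flag for a signal well above background. No probe is named for sORF2146, so the overexpression itself was not checked here. All 8 leaf marker genes and all 13 root marker genes listed passed the filter on low values, and none of either list passed the test. Each group was hybridised on its own slide of 3 arrays. A slide effect and a group effect cannot be told apart in any value below. In whole seedlings, fewer plastids or plastid-rich cells and less plastid RNA per cell cannot be told apart either. The labelling kit named in the labels primes from poly(A) tails, which in plastids mark RNA for decay, and what this does to these values was not tested.

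Of the 32 features 1, rps14 (ATCG00330), was higher in sORF2146ox past the test, and none was lower. That feature is 3.12% of the housekeeping features, against 2.51% of all 23394 genes that were higher and 2.65% that were lower past the same test, a limma p adjusted by Benjamini-Hochberg and below 0.05. The median difference over the 32 features was 0.04, and it was 0.03 over all genes tested. Differences were above 0 for 19 features and below 0 for 13. An unadjusted p under 0.05 was reached by 2 of the 32, or 6.25%, where 30.8% of all genes reached it. That count depended on the scaling: it was 10 of the 32 with no scaling between arrays and 0 with scaling by the spike-in probes. The matching shares of all genes are not reported here. The groups did not overlap, with every sORF2146ox array above every control array, in 3 features, or 9.38%, against 23% of all genes. In 2 features, or 6.25%, every sORF2146ox array lay below every control array, against 17.6% of all genes. Differences of the other 31 features lay between -0.22 and 0.34 with adjusted p-values from 0.148 to 0.982. For 30 of those 31 the 95% interval of the difference included 0, and the standard errors over all 32 features were 0.094 to 0.19. A p that missed the threshold does not show that the groups were alike, and the intervals reached as far as -0.51 and 0.73.

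**Figure D1:**
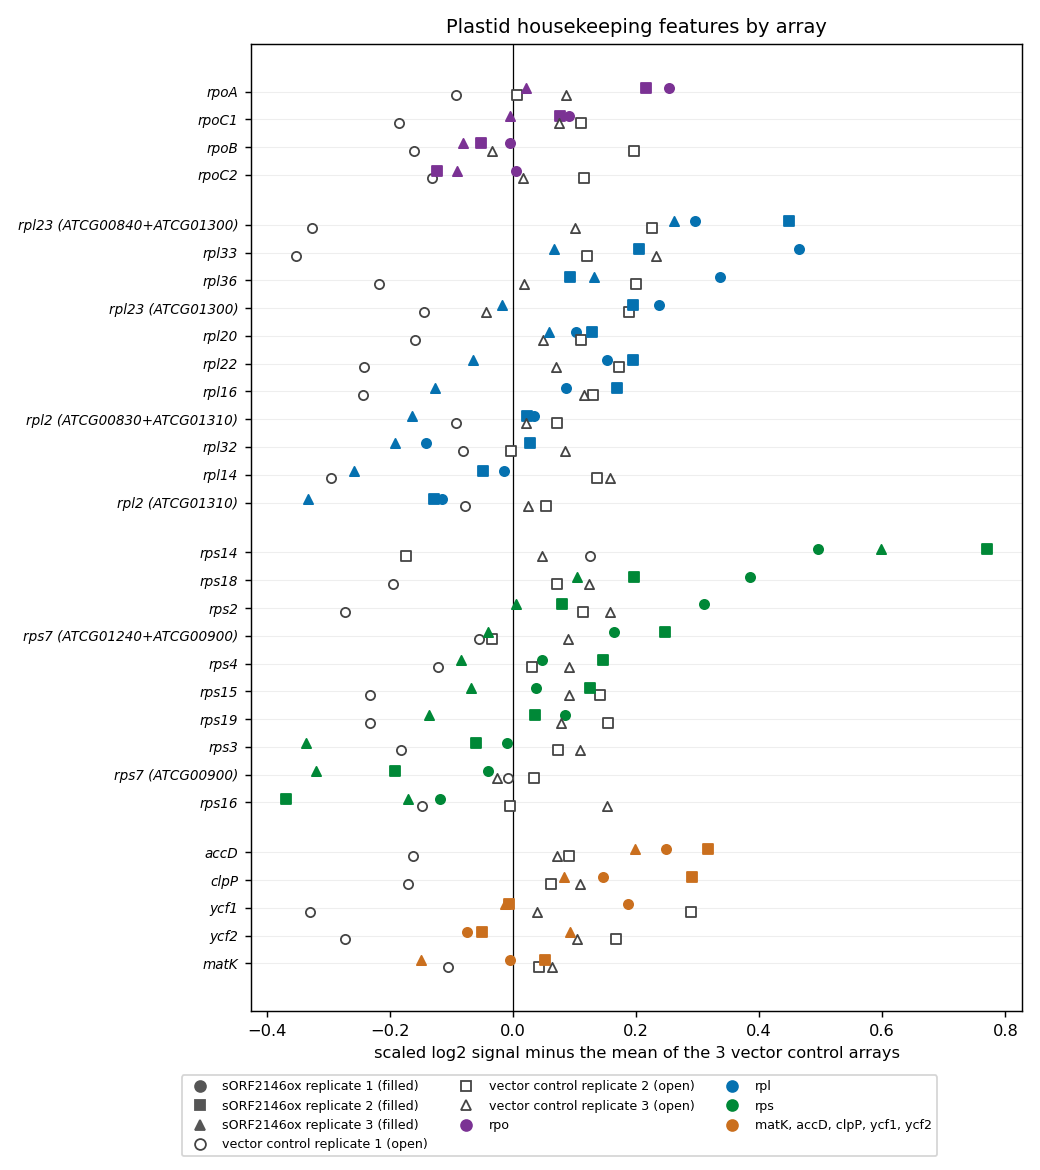
Scaled log2 signal of 30 of the 32 plastid housekeeping features on each of the 6 arrays, drawn as the distance from the mean of the 3 vector control arrays (horizontal axis, log2 units), with filled symbols for sORF2146ox and open symbols for vector control and the symbol shape giving the replicate number. The 2 groups are intermixed in most rows, vector control replicate 1 (open circles) is the lowest of the 6 arrays in 22 of the 30 rows, and rps14 stands to the right.

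The gene rps14 encodes a protein of the small ribosomal subunit. Its scaled log2 signal was 1.54, 1.81 and 1.64 on the sORF2146ox arrays 1 to 3 and 1.17, 0.87 and 1.09 on the vector control arrays. Every sORF2146ox array was above every control array, and the closest pair was sORF2146ox replicate 1 and vector control replicate 1. The difference was 0.62 (SE 0.12, n = 3 against 3, limma adjusted p = 0.047), a 1.54-fold higher signal, with a 95% interval from 0.33 to 0.92. Before scaling, the processed signal was 2891, 2865 and 2851 in sORF2146ox and 2623, 2032 and 2333 in the controls. The groups were apart there too, but the unscaled difference was 0.31 and short of the threshold (limma adjusted p = 0.154). The call for rps14 was lost when any 1 of the 6 arrays was left out, with differences of 0.54 to 0.68 and limma adjusted p-values of 0.0505 to 0.151.

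In the plastid chromosome rps14 lies beside psaB and psaA, which encode the core proteins of photosystem I, and plants are known to transcribe the 3 genes together. ATCG00340, which is psaB, differed by 0.05 (SE 0.077, limma adjusted p = 0.66). ATCG00350, which is psaA, rose by 0.43 (SE 0.081, limma adjusted p = 0.047), with 2.99, 3.10 and 2.93 in sORF2146ox and 2.51, 2.61 and 2.61 in the controls. Whether the call for psaA holds with 1 array left out was not tested. In both rps14 and psaA the 2 groups were apart, whereas the difference of psaB, which lies between them, was near that of the median gene. Whether the 3 differences differ from each other was not tested.

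None of the other small-subunit features passed the test. The feature with the lowest difference was rps16 (ATCG00050), a gene with an intron whose function in several plant lineages has moved to the nucleus, with scaled log2 signals of 0.79, 0.54 and 0.74 in sORF2146ox and 0.76, 0.90 and 1.06 in the controls. The groups overlapped, since sORF2146ox replicate 1 was above vector control replicate 1, and the difference of -0.22 (SE 0.12) had a limma adjusted p of 0.25. The ribosomal protein gene rps18 (ATCG00650) differed by 0.23 (SE 0.13, limma adjusted p = 0.26). Differences nearer to 0 were found for rps2 (ATCG00160) at 0.13, rps4 (ATCG00380) at 0.04, rps15 (ATCG01120) at 0.03, rps19 (ATCG00820) at -0.01 and rps3 (ATCG00800) at -0.13. The products of rps4 and rps7 bind the ribosomal RNA early in the assembly of the bacterial small subunit, as known from Escherichia coli. The median of the 12 small-subunit features was 0.03.

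Because part of the plastid chromosome is an inverted repeat, rps7, rpl2 and rpl23 are each present at a pair of loci, and each was read by 2 probes. For rps7, the probe named for ATCG00900 alone gave 4.91, 4.75 and 4.63 in sORF2146ox and 4.94, 4.98 and 4.92 in the controls, every sORF2146ox array below every control array. Its difference was -0.18 (SE 0.095, limma adjusted p = 0.24). The probe named for both ATCG01240 and ATCG00900 differed by 0.12 (SE 0.10, limma adjusted p = 0.45), so the 2 probes of rps7 had differences of opposite sign and neither passed the test. The copies of the repeat have near-identical sequence, and the names do not say which part of a transcript a probe reads.

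Among the large-subunit genes, 7 of 11 features had a difference above 0 and 4 below, with a median of 0.09, and none passed the test. The feature with the highest difference was the rpl23 probe named for both ATCG00840 and ATCG01300, with 4.90, 5.05 and 4.86 in sORF2146ox and 4.28, 4.83 and 4.70 in the controls. The groups were just apart and vector control replicate 1 was far below the other 5 arrays, so that the difference was 0.34 (SE 0.16, limma adjusted p = 0.21) with all arrays and 0.17 without that one. The protein L23 sits at the mouth of the exit tunnel of the bacterial ribosome. The second rpl23 probe, named for ATCG01300 alone, differed by 0.14 (SE 0.12, limma adjusted p = 0.47). The lowest difference was that of the rpl2 probe named for ATCG01310 alone, with 4.45, 4.44 and 4.23 in sORF2146ox and 4.49, 4.62 and 4.59 in the controls. In that probe every sORF2146ox array was below every control array, with a difference of -0.19 (SE 0.094, limma adjusted p = 0.22). The rpl2 probe named for both ATCG00830 and ATCG01310 differed by -0.04 (limma adjusted p = 0.81). The protein L2 is a core protein of the bacterial peptidyl transferase region. Of the remaining large-subunit genes, rpl33 (ATCG00640) differed by 0.25, rpl36 (ATCG00760) by 0.19, rpl20 (ATCG00660) by 0.10, rpl22 (ATCG00810) by 0.09, rpl16 (ATCG00790) by 0.04, rpl32 (ATCG01020) by -0.10 and rpl14 (ATCG00780) by -0.11. In rpl33 and rpl14 the control arrays spread widely, with standard deviations of 0.31 and 0.26.

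The polymerase subunit genes had differences between -0.07 and 0.16. The median of the 4 was 0.00, with 2 above 0 and 2 below, and none had an unadjusted p under 0.05. The highest was rpoA (ATCG00740), which encodes the alpha subunit, with 6.33, 6.29 and 6.10 in sORF2146ox and 5.98, 6.08 and 6.16 in the controls. The groups overlapped through sORF2146ox replicate 3 and vector control replicate 3, and the difference was 0.16 (SE 0.099, limma adjusted p = 0.30). The lowest was rpoC2 (ATCG00170), which encodes the beta'' subunit, with 5.30, 5.18 and 5.21 in sORF2146ox and 5.17, 5.42 and 5.32 in the controls. There too the groups overlapped, with a difference of -0.07 (SE 0.09, limma adjusted p = 0.64). The gene rpoB (ATCG00190), for the beta subunit, differed by -0.05, and rpoC1 (ATCG00180), for the beta' subunit, by 0.05. RefSeq places rpoB, rpoC1, rpoC2 and rps2 next to each other, a cluster whose first 3 members are known to share a promoter, and the 4 differences lay between -0.07 and 0.13.

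The remaining 5 genes have separate roles. The gene accD encodes the plastid subunit of the acetyl-CoA carboxylase that starts fatty acid synthesis, and its probe (ATCG00500) gave 3.36, 3.43 and 3.31 in sORF2146ox and 2.95, 3.21 and 3.19 in the controls. Every sORF2146ox array was above every control array, but before scaling the order was lost, with processed signals of 10269, 8822 and 9114 against 9058, 10289 and 10007. The scaled difference was 0.26 (SE 0.098), with a 95% interval of 0.01 to 0.50, a limma p of 0.042 and a limma adjusted p of 0.15. The lowest of the 5 was matK (ATCG00040), which encodes a maturase for plastid group II introns, with 6.48, 6.54 and 6.34 in sORF2146ox and 6.38, 6.53 and 6.55 in the controls. The groups were intermixed and the difference was -0.03 (SE 0.09, limma adjusted p = 0.82). The gene clpP (ATCG00670), for the catalytic subunit of the plastid Clp protease, differed by 0.17 (SE 0.11, limma adjusted p = 0.32).

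The genes ycf1 and ycf2 encode large proteins of the plastid envelope that have been assigned to protein import. The difference of the ycf1 probe (ATCG01130) was 0.06, with an SE of 0.17 and a limma adjusted p of 0.84. Its name also lists a locus of the mitochondrial chromosome and a locus of chromosome 2. The difference of the ycf2 probe (ATCG01280 and ATCG00860) was -0.01, with an SE of 0.14 and a limma adjusted p of 0.97. That name also lists a region of chromosome 1. Both values are therefore uncertain as measures of the plastid genes alone. The control arrays spread more than the sORF2146ox arrays in both, with standard deviations of 0.31 against 0.11 for ycf1 and 0.24 against 0.09 for ycf2.

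**Figure D2:**
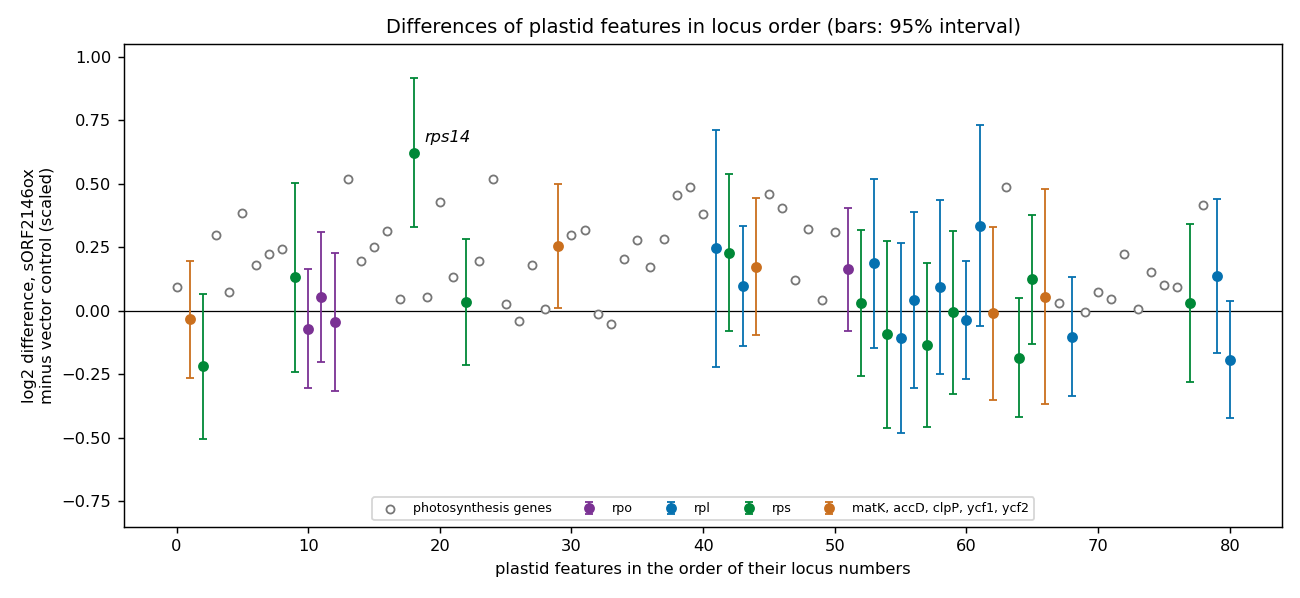
Log2 difference, sORF2146ox minus vector control, of the plastid features in the order of their locus numbers (horizontal axis, rank), with 95% intervals for the 32 housekeeping features in colour by class and open grey circles for 49 photosynthesis features. A feature that names several loci stands at the lowest plastid number in its name. Of the housekeeping intervals, those of rps14 and accD alone lie above 0, and no run of neighbouring coloured points leaves 0 together.

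Neighbours on the chromosome had differences of mixed sign. The longest run of neighbours in RefSeq held 12 of these genes, from rpoA at one end to ycf2 at the other, most of them an operon inherited from bacteria. Among the probes that name a locus of that run the differences lay between -0.13 and 0.34, no feature passed the test, and signs were mixed from gene to gene. The rpl2 and rpl23 probes named only for the other copy of the repeat differed by -0.19 and 0.14. The 3 neighbours rpl33, rps18 and rpl20 had differences of 0.25, 0.23 and 0.10, all above 0 and none past the test.

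The housekeeping features moved together from array to array. Vector control replicate 1 was the lowest of the 6 arrays in 24 of 32 features and the lowest of the controls in 30. Among the sORF2146ox arrays, replicate 3 was the lowest in 27. The median deviation of the 32 features from their mean over the 6 arrays was 0.06, 0.06 and -0.07 in sORF2146ox and -0.21, 0.10 and 0.06 in the controls. In words, 1 control array stood below the rest and the other 2 controls were about as high as the highest sORF2146ox arrays. Across the 496 pairs of features, the median correlation of the deviations from the group means was 0.76 over 6 arrays, and 464 pairs correlated above 0. This is a description only, since the points share the scaling and the RNA of each array. The median standard deviation of a feature was 0.12 in sORF2146ox and 0.16 in the controls, and the controls had the larger one in 23 of 32 features. Over all genes the medians were 0.12 and 0.17, and over the photosynthesis features 0.10 and 0.08. Without vector control replicate 1 the median difference of the 32 features was -0.07 in place of 0.04. By class it was then -0.08 for rpo, -0.03 for rpl, -0.07 for rps and -0.09 for the other 5 genes, so the sign of each class median turned on that array.

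The 49 features of plastid photosynthesis genes differed from the housekeeping features in their counts. Of the 49, 4 rose (ATCG00430 by 0.52, ATCG00590 by 0.46, ATCG00350 by 0.43 and ATCG00690 by 0.41, with limma adjusted p-values of 0.0345 to 0.0483) and none fell. That is 8.16% of the list, against 2.51% of all genes. Whether these 4 calls hold with 1 array left out was not tested, where calls over all genes numbered 35 to 1191. Their median difference was 0.20, with 45 above 0, and in 25 of them, or 51%, every sORF2146ox array was above every control array, against 23% of all genes. With spike-in scaling that median was -0.08, and with no scaling -0.12, so its sign turned with the scaling. The median deviation of the photosynthesis features minus that of the housekeeping features was 0.04, 0.12 and 0.09 on the sORF2146ox arrays and 0.01, -0.17 and -0.07 on the control arrays. All 3 sORF2146ox arrays were above all 3 control arrays in that quantity, which does not depend on the scaling between arrays. Both lists were chosen with results of these arrays known, so no test is given for the difference between them.

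The spike-in probes give a separate view of small shifts, since the E1A transcripts were added to each RNA in known amounts and carry no biology of the plant. Of 10 spike-in probes, 8 were above background. Their median scaled log2 signal was 0.89, 1.40 and 1.35 in sORF2146ox and 0.95, 0.97 and 0.89 in the controls. Of the sORF2146ox arrays, 2 lay above all controls and 1 just below them. The difference was 0.27 (exact two-sided permutation p = 0.4, n = 3 against 3, where 0.1 is the smallest p possible). Before scaling it was -0.04 (exact two-sided permutation p = 0.8, n = 3 against 3). The 75th percentile itself was lower in sORF2146ox by -0.31 on the log2 scale, with no overlap (exact two-sided permutation p = 0.1, n = 3 against 3, the smallest possible).

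Thus 31 of the 32 housekeeping differences were no further from 0 than 0.34, while the scaled spike-in shift was 0.27. That shift was 0.43 without sORF2146ox replicate 1 and 0.18 without sORF2146ox replicate 2. Single spike-in probes differed by -0.08 to 0.36 after scaling, a range that holds most of the housekeeping differences and not the 0.62 of rps14. The dimmer spike-in probes tended to have the larger differences. Spike-in probes with control means of 1000 and 4670, on either side of rps14 in signal, differed by 0.33 and 0.22. The brightest, with a control mean of 121044, differed by 0.02. When arrays were scaled by the spike-ins in place of the 75th percentile, the median of the housekeeping features was -0.23 and that of all genes -0.24, only the joint rpl23 probe and rps14 stayed above 0, and none of the 32 passed the test. With spike-in scaling, rps14 was 0.65, 0.41 and 0.29 in sORF2146ox and 0.21, -0.11 and 0.20 in the controls. The groups still did not overlap, and the difference was 0.35 (limma adjusted p = 0.43). By class the medians with spike-in scaling were -0.27 for rpo, -0.18 for rpl, -0.24 for rps and -0.22 for the other 5 genes. This scaling moves every gene by the same amount, so the sign of a class median depended on it and the place of the class among all genes did not.

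**Figure D3:**
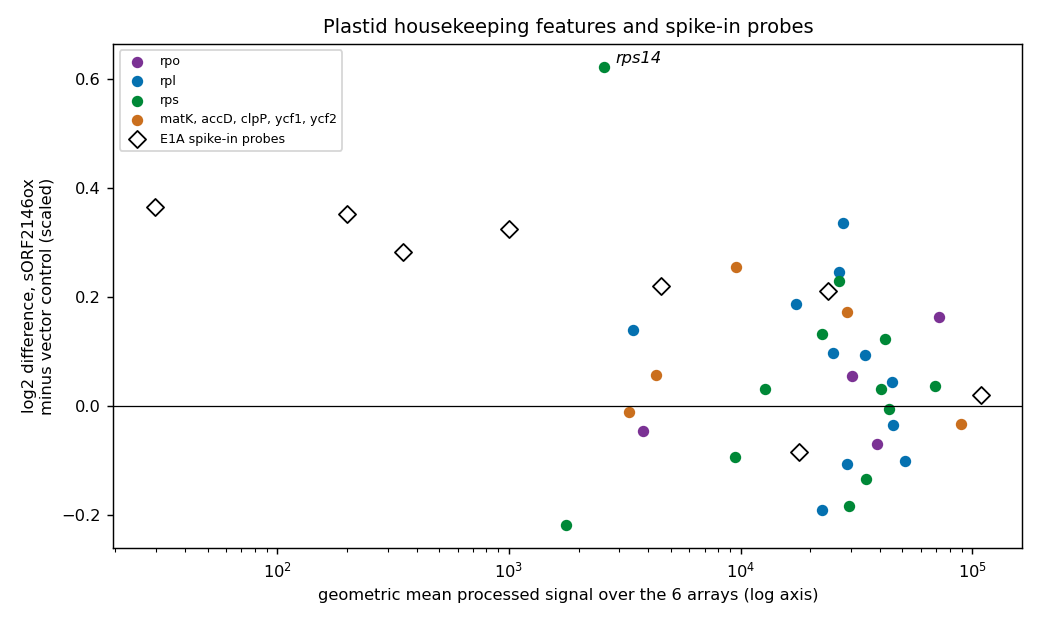
Log2 difference after scaling to the 75th percentile (vertical axis) against the geometric mean processed signal over the 6 arrays (horizontal log axis) for the 32 housekeeping features (coloured points) and 8 spike-in probes (open diamonds). The spike-in probes spread from -0.08 to 0.36, and the 31 housekeeping features other than rps14 from -0.22 to 0.34. The spike-in shift of 0.27 lies above the housekeeping median of 0.04, and rps14 lies above both spreads at 0.62.

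The plastid ribosome, polymerase, protease and carboxylase all work with nuclear-encoded proteins, as do plastid protein import and RNA processing. Of these nuclear partner genes 97 were tested, and 3 passed. Over all 23394 genes, 2.51% were higher and 2.65% lower past the test. All 3 partner calls were lost with normexp background correction, with no filter on dim probes and with the replicate number as a block. With 1 array left out, 0 to 2 partner genes passed. Of 39 nuclear genes for plastid ribosomal proteins, 1 rose, or 2.56%, and none fell, with a median of 0.08. With vector control replicate 1 left out it was -0.04, and with spike-in scaling -0.19. The one that rose was AT5G24490, at 1.89, 1.84 and 1.76 in sORF2146ox and 0.74, 0.96 and 1.16 in the controls, a difference of 0.88 (SE 0.13, limma adjusted p = 0.032) with no overlap. PRPL35 (AT2G24090), a large-subunit protein, differed by 0.38, and PSRP3/1 (AT1G68590), a plastid-specific ribosomal protein, by 0.42, both short of the test at limma adjusted p-values of 0.11 and 0.13. Of 22 nuclear genes for plastid transcription, none passed the test and the median was 0.01, or -0.09 with that array left out. The smallest limma adjusted p-values there were 0.11 for AT5G15700, 0.14 for PTAC7 (AT5G24314) and 0.16 for MURE (AT1G63680), with differences of -0.37, 0.35 and -0.33. PTAC7 and MURE code for proteins found with the plastid polymerase.

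Among 15 nuclear genes of the plastid Clp protease, 1 rose, or 6.67%, and 1 fell, and the median was -0.05. HSP93-III (AT3G48870), a Clp chaperone of the envelope import machinery, gave 1.41, 1.25 and 1.30 in sORF2146ox and 1.86, 2.10 and 1.89 in the controls. All sORF2146ox arrays were below all controls, and the difference was -0.63 (SE 0.099, limma adjusted p = 0.036). AT1G68660 rose by 0.45 (SE 0.084, limma adjusted p = 0.047), and AT2G03390 differed by 0.23 (limma adjusted p = 0.16). The calls for HSP93-III and AT1G68660 were lost without vector control replicate 2, and without each sORF2146ox array in turn. The plastid-encoded member of the same protease, clpP, did not pass the test.

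All 4 nuclear genes of the plastid acetyl-CoA carboxylase had a difference above 0, as did accD, and none of the 5 passed the test. Over all genes, 12636 of 23394 differences were above 0. The sign of accD turned with the scaling, at -0.02 with spike-in scaling and -0.06 with no scaling. CAC3 (AT2G38040), the alpha carboxyltransferase subunit that pairs with the accD product, gave 4.04, 4.08 and 4.03 in sORF2146ox and 3.48, 3.84 and 3.78 in the controls, with a difference of 0.35 (SE 0.12, limma adjusted p = 0.11) and no overlap. CAC1 (AT5G16390) differed by 0.48, BCCP2 (AT5G15530) by 0.35 and CAC2 (AT5G35360) by 0.13, with limma adjusted p-values of 0.16, 0.36 and 0.50. The median of the 4 was 0.35. Vector control replicate 1 was the lowest array here as well, at a median deviation of -0.52, and the median without it was 0.16. The median was 0.08 with spike-in scaling and 0.04 with no scaling.

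None of the 8 tested nuclear partners of Ycf1 and Ycf2 in protein import passed the test, and their median was 0.05, or -0.02 with vector control replicate 1 left out. The smallest limma adjusted p there was 0.40, for emb1211 (AT5G22640) at a difference of 0.14. Of the 9 nuclear genes for plastid RNA processing and splicing none passed either, with a median of -0.03. The splicing factor CRS1 (AT5G16180) had the smallest limma adjusted p among these, 0.20, at a difference of 0.17. Leaf markers had a median difference of -0.02 and root markers one of 0.31. Single root markers ran from -1.81 to 0.92, with 9 above 0 and 4 below. The root marker median was 0.05 without vector control replicate 1, 0.03 with spike-in scaling and -0.01 with no scaling. For leaf markers the last 2 settings gave -0.30 and -0.34. The part of either tissue in the plastid values was not tested.

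**Figure D4:**
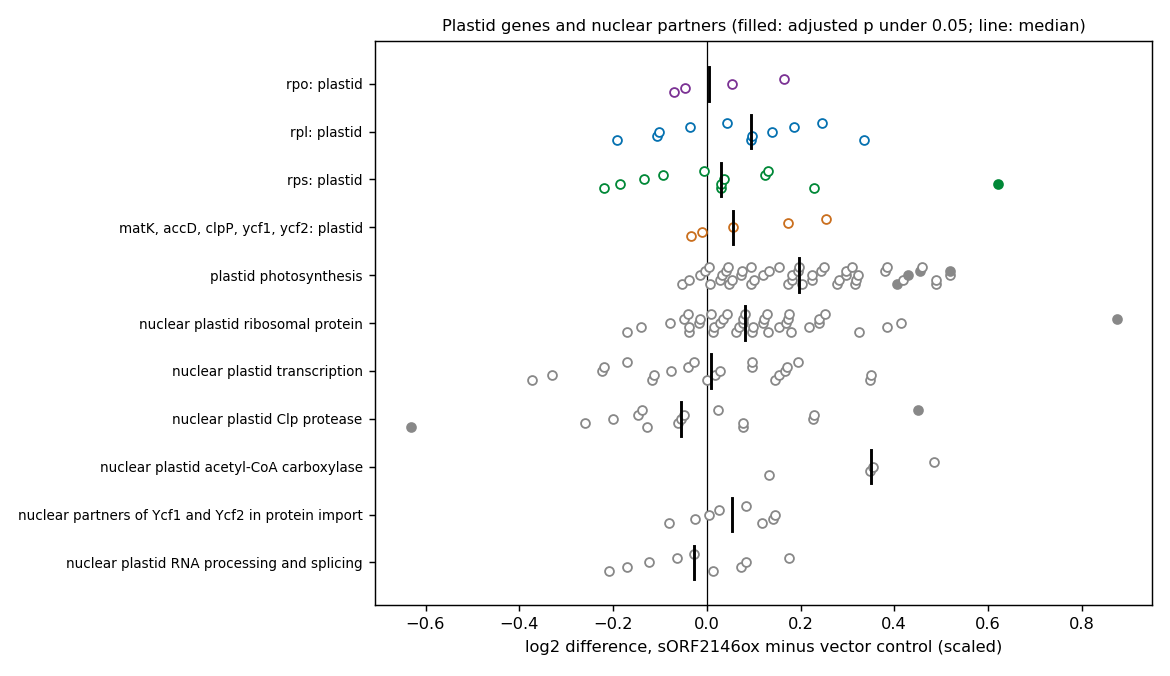
Log2 difference (horizontal axis) of every gene in the 4 classes of plastid housekeeping features, in the plastid photosynthesis list and in the lists of nuclear partner genes (rows), with filled points for a limma adjusted p under 0.05 and a black line at each median. The rpo class is centred on 0.00, the photosynthesis list is centred on 0.20 and the 4 carboxylase genes on 0.35, and of the housekeeping points 1, rps14, is filled.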

How the data were processed

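The scanner files give the intensity of each spot. They were written by version 11.5.1.1 of Agilent Feature Extraction, per the submitters' processing notes and the file headers. The processed intensity is already background-subtracted and detrended within the array, per the file headers, but not scaled between arrays. Use was also made of median spot and background intensity and of the flags of 0 or 1, which are other values named in the deposited files. The series' deposited table of linear intensity was taken as quantile normalized, since at 96.3% of ranks its columns held the same sorted value (relative tolerance 1e-06).

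The log2 of each deposited processed intensity was reduced by its array's 75th percentile over 35635 probes that are not controls. Outlier flags became missing values, of which the plastid housekeeping features had none. Testing was limited to probes well above background on every array of 1 or both groups, and a gene was its brightest probe. A probe name with more than 1 locus counted as a gene of its own, so rps7, rpl2 and rpl23 each entered as 2 features. The 2 groups were set against each other with limma 3.58.1 (lmFit, then eBayes; R 4.3.3) across 23394 genes, with Benjamini-Hochberg adjustment at 0.05. The self-test used simulated data. Figures were drawn with matplotlib 3.10.9. The number of arrays limits the precision.

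Members and gene lists were chosen with earlier results of these data known. Members are named except 2 whose single values are not reported here, though counts and medians include them. Array values are given for members past the threshold and for the highest and lowest of each class, and up to 3 genes with the smallest adjusted p are named of each nuclear partner list; values for the rps7 probe and for the rps14 neighbours were added after they were seen. Neither the files nor the RefSeq table for TAIR10.1 pair plastid locus identifiers with symbols, so symbols follow general TAIR naming. All 29 symbols occur in the RefSeq plastid rows, and all 33 loci run in the RefSeq order. RefSeq served for names and neighbours only, and no coordinates or sequences are given.

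Alternatives covered scaling, background correction, filter, probe rule, variance model, the replicate number as a block, and each array left out in turn. The normexp alternative used median signals. Subtraction with an offset of 50 was added after seeing the data. In the main fit the replicate numbers were not treated as pairs. Same-numbered arrays of the 2 groups did not deviate together, but that cannot show whether they share a batch.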

Additional observations from a re-analysis of the deposited data

How the results depend on the processing

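Over all genes, 1209 passed the test, 588 higher and 621 lower. Scaling by the spike-in probes gave 1958 (102 higher, 1856 lower), no scaling 2563 (97 and 2466), normexp 4, no filter on dim probes 188, and leaving out 1 array 35 to 1191, with 46, 49 and 51 without sORF2146ox replicates 1, 2 and 3, and 35 without vector control replicate 2. The split moved to 784 and 492 with quantile normalization, 772 and 483 with the deposited table, 409 and 625 with the percentile over detected probes, and 1010 and 533 with background subtraction, which was chosen after seeing the data. Of the housekeeping features, the number that rose was 1, and 0 with spike-in scaling, no scaling, normexp, no filter and the replicate block, and 0 to 0 without any 1 array; none fell in any of the 18 alternatives. The call for rps14 held in 7 of 18 alternatives, with differences of 0.31 to 0.68, all above 0, and limma adjusted p-values of 0.0365 to 0.43. Those 7 are not separate checks. Because rps14 has 1 probe, the alternative probe rules could not change its difference. The deposited table was itself taken as quantile normalized, and background subtraction was added after seeing the data. With normexp the limma adjusted p was 0.328, and with no filter 0.0866. The median of the housekeeping features was -0.23 with spike-in scaling and -0.27 with no scaling, where the median of all genes was -0.24 and -0.28, and it was -0.067 to 0.104 without 1 array. Both scalings move every gene by 1 shared amount. Of the 32 differences, 2 changed sign with quantile normalization, normexp, subtraction or the deposited table, and up to 8 (without vector control replicate 1) when an array was left out; none of these had passed the test. The 3 calls among nuclear partners became 1 with spike-in scaling, 0 with normexp, no filter and the replicate block, and 0 to 2 without 1 array. The spike-in difference before scaling was -0.117 to 0.053 without 1 array. With the replicate block 14 genes passed in all, and rps14 had a limma adjusted p of 0.146. Arrays with the same number had deviations that correlated at -0.0857, -0.000468 and -0.0226 over all genes. Over the housekeeping features the correlations were -0.382, -0.339 and -0.127. No sORF2146ox array correlated best with the control array of its own number over all genes. Whether same-numbered samples share a batch cannot be told from these correlations. The causes of these changes were not tested.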
